A study of Rattus norvegicus with 6 samples.

Results

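The opioid system of the spinal cord was examined through 8 genes, the 4 opioid receptors Oprm1, Oprd1, Oprk1 and Oprl1 and the 4 peptide precursors Penk, Pdyn, Pnoc and Pomc. The genes were taken by symbol from the 30957 genes listed, and all 8 were found in the table. RNA-seq was run on the lumbar enlargement, on the side of the inoculated tibia and with the meninges removed, at day 14 in 3 bone cancer pain (BCP) and 3 sham libraries. BCP rats were adult female Wistar rats that received living Walker 256 cells, a rat mammary carcinoma line, in the marrow cavity of the left tibia. Sham rats were of the same strain, sex and time point and received heat-killed cells of the same line by the same operation, so both groups had surgery and tumor material in the bone, and no group without surgery was sequenced. No source used here states which library came from which animal, so p-values measure the spread between these libraries.

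Opioid receptors are coupled to inhibitory G proteins of the Gi/o family, which lower adenylyl cyclase activity, open G protein-gated potassium channels and close presynaptic calcium channels. Enkephalins (Penk) act mainly at the delta and mu receptors (Oprd1, Oprm1), dynorphins (Pdyn) at the kappa receptor (Oprk1), nociceptin (Pnoc) at the nociceptin receptor (Oprl1), and beta-endorphin (Pomc) at mu and delta. In the dorsal horn, enkephalin, dynorphin and nociceptin are made by local neurons. The mu receptor is found both on neurons of the dorsal horn and on the endings of primary afferents. The transcripts of those afferents lie in the dorsal root ganglion and not in the cord. Pomc is made mostly in the pituitary and hypothalamus.

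Pdyn was the only one of the 8 genes whose level passed the test, and it was higher in BCP. Its count, scaled to counts per 1000000 counts of its library (CPM), averaged 15.2 ± 2.87 (SD, n = 3) in sham and 24.0 ± 2.49 (SD, n = 3) in BCP, a fold change of 1.57 (95% interval 1.3 to 1.90). Of the 8 genes 7 had enough counts to be tested, and Pomc did not. Of the 7, 1 was higher, 0 were lower and 6 did not pass at an adjusted p under 0.05 by edgeR. The share that passed was 14.3%, against 27.9% of all 14908 genes tested, and 1 of 7 is a count too small to set against that share. At an unadjusted p under 0.05 there were 2, Pdyn and Oprd1, by edgeR, beside 5563 of all 14908 genes tested. By DESeq2 there was 1, beside 4777 of 14908. The number ranged from 1 to 4 over all alternatives. It was 4 under upper-quartile factors (Oprl1 and Penk added), beside 5865 of 14908, and 3 without BCP library 1, beside 5542 of 15108. These counts among 7 genes are also too small to set against those over all genes. None passed the threshold with a fold change over 2, a mark that 6.45% of all genes passed (6.35% higher and 0.107% lower).

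The promoters of the 2 genes whose CPM did not overlap between the groups, Pdyn and Oprd1, are shown as the 250 bases before the RefSeq start in the GRCr8 assembly, read 5′ to 3′ along the gene. This assembly is not the one of the counts, so its coordinates belong to the sequences alone. The Pdyn window is chr3:137366504-137366753 on the minus strand, and the Oprd1 window is chr5:149625000-149625249 on the minus strand. Capitals mark TATAAA in Pdyn, and GGGCGG or its reverse complement, the GC box of Sp1, in Oprd1.
Pdyn: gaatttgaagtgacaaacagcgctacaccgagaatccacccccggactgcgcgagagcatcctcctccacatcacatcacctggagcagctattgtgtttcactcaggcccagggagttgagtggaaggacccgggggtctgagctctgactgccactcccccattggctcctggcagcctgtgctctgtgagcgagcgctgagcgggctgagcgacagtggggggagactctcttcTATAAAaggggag
Oprd1: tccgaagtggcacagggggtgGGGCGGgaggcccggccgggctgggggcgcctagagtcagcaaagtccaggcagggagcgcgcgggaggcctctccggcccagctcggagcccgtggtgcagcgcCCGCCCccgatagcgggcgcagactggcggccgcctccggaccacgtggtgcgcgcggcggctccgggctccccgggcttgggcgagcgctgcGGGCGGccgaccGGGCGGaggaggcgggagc
In Pdyn the TATAAA began 13 bases before the start, and 8.06% of 33469 rat windows of this length held it on the given strand. The Oprd1 window was richer in G and C, at 79.6% against 59.2%, and held 4 GC boxes. At least 1 GC box on either strand was present in 30.5% of all windows, and none was in the Pdyn window. Neither window held TGACG, the core of a cAMP response element (18.2% of windows, both strands), which also lies within the full element TGACGTCA (1.59%). Nor did either hold TGANTCA, the consensus AP-1 site (6.34%, both strands). Only exact matches to these patterns within the 250 bases were searched. Variant forms of either site and sites farther upstream were not examined, so their absence is not shown. The table of starts had an entry for 4 of the 8 genes, the others being Oprm1 with 2 starts and Pomc, whose window held TATAAA 32 bases before the start and 1 GC box.

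Levels of different genes were compared as FPKM, the authors' value per gene length. Penk was the most abundant of the 8 genes in every library, with 56.2 ± 5.6 FPKM (SD, n = 3) in sham and 53.4 ± 3.30 (SD, n = 3) in BCP. The order after it was Oprl1, Pdyn, Pnoc, Oprk1, Oprd1, Oprm1 and Pomc by the mean of either group. In sham, Pdyn (4.84 to 6.89 FPKM) overlapped its neighbor Pnoc (4.39 to 5.96), and Oprm1 (0.826 to 1.21) overlapped Pomc (0.358 to 0.927), so these neighbors in the order did not differ beyond their spread. No neighbors overlapped in BCP.

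**Figure D1:**
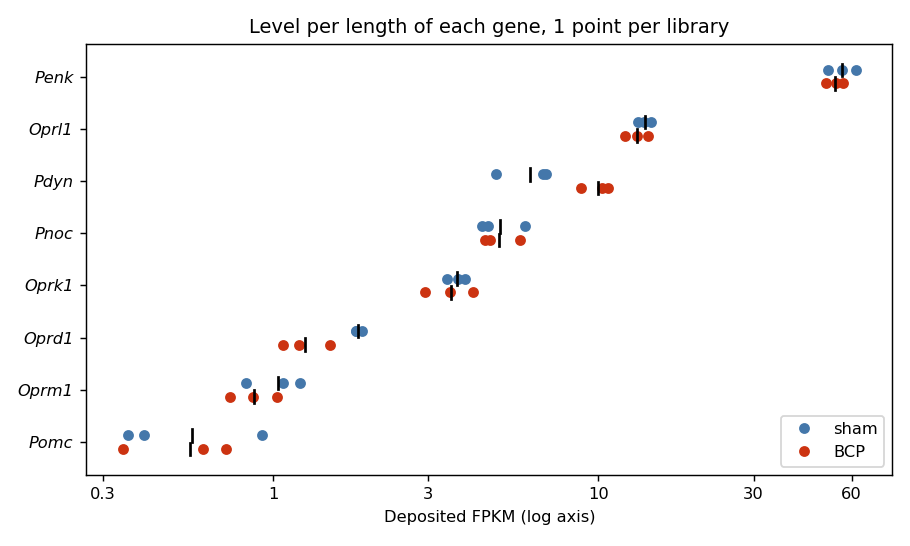
Deposited FPKM of the 8 genes in each library on a log axis, with 3 sham and 3 BCP points per gene and a bar at each group mean. Penk lies between 50.0 and 61.8 and Pomc below 1, and Pdyn and Oprd1 are the genes whose sham and BCP points do not overlap.

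Among the receptors, none passed the test, and the 4 log2 fold changes were all below 0 with a median of -0.20, beside -0.01 over all genes tested. Oprd1, the delta receptor at 5:150288126-150323063 in Rnor_6.0, had 34, 37 and 40 counts in sham libraries 1 to 3 and 25, 21 and 22 in BCP libraries 1 to 3. In CPM this was 2.59, 2.58 and 2.70 in sham and 2.11, 1.5 and 1.67 in BCP. All 3 BCP values lay below all 3 sham values. The log2 fold change was -0.58 with an SE of 0.27 (95% interval -1.15 to -0.02), and the adjusted p of edgeR was 0.12. Groups that did not overlap in CPM were found in 2 of the 7 genes (28.6%), Pdyn and Oprd1, and in 41.4% of all genes tested, so the separation of the Oprd1 values is common in these data. The counts were at most 40 in a library, and the adjusted p ranged from 0.0855 to 0.313 over all alternatives and left-out libraries.

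Oprm1, the mu receptor through which morphine acts, lies at 1:43454803-43704948. Its CPM was 8.92, 13 and 11.6 in sham and 9.13, 10.7 and 7.65 in BCP. The groups overlapped, with sham library 1 below BCP libraries 1 and 2. The log2 fold change was -0.28 with an SE of 0.16 (95% interval -0.62 to 0.06, adjusted p = 0.218 by edgeR). This interval covers a fold change from 0.649 to 1.04. The log2 fold change was -0.42 without sham library 1 and -0.16 without sham library 2, and over all alternatives and left-out libraries the adjusted p ranged from 0.0755 to 0.629. Ipcef1, a gene unrelated to opioid peptides, lies inside the span of Oprm1 over 70320 bases, and its log2 fold change was 0.47 (adjusted p = 0.0703 by edgeR). The use of strand in counting is not given in the sources used here, so it is uncertain how reads of the shared stretch were assigned.

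Oprk1, the dynorphin receptor at 5:13744658-13760305, had a CPM of 9.0, 10.2 and 9.66 in sham and 7.52, 8.86 and 10.5 in BCP. BCP library 3 was above and the other two BCP libraries were below the sham libraries. Its log2 fold change was -0.10 with an SE of 0.15 (95% interval -0.42 to 0.21, adjusted p = 0.672 by edgeR), in the libraries in which Pdyn was higher. The interval covers a fold change from 0.748 to 1.16.

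Oprl1, the nociceptin receptor at 3:177225737-177231663, had the highest FPKM of the receptors in all 6 libraries, between 66.7% and 72.9% of their summed FPKM. Its CPM was 53.1, 55.1 and 58.0 in sham and 55.6, 46.6 and 50.7 in BCP, and the groups overlapped through BCP library 1. Its log2 fold change was -0.12 with an SE of 0.07 (95% interval -0.28 to 0.03, adjusted p = 0.252 by edgeR), and it was -0.059 without BCP library 2 and -0.18 without BCP library 1, with no call in either case. Within the summed FPKM of the receptors, Oprd1 took 8.68% to 9.31% in sham and 6.11% to 7.69% in BCP. Oprk1 took 15% to 21.5% and Oprm1 took 3.84% to 5.84% over all 6 libraries.

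**Figure D2:**
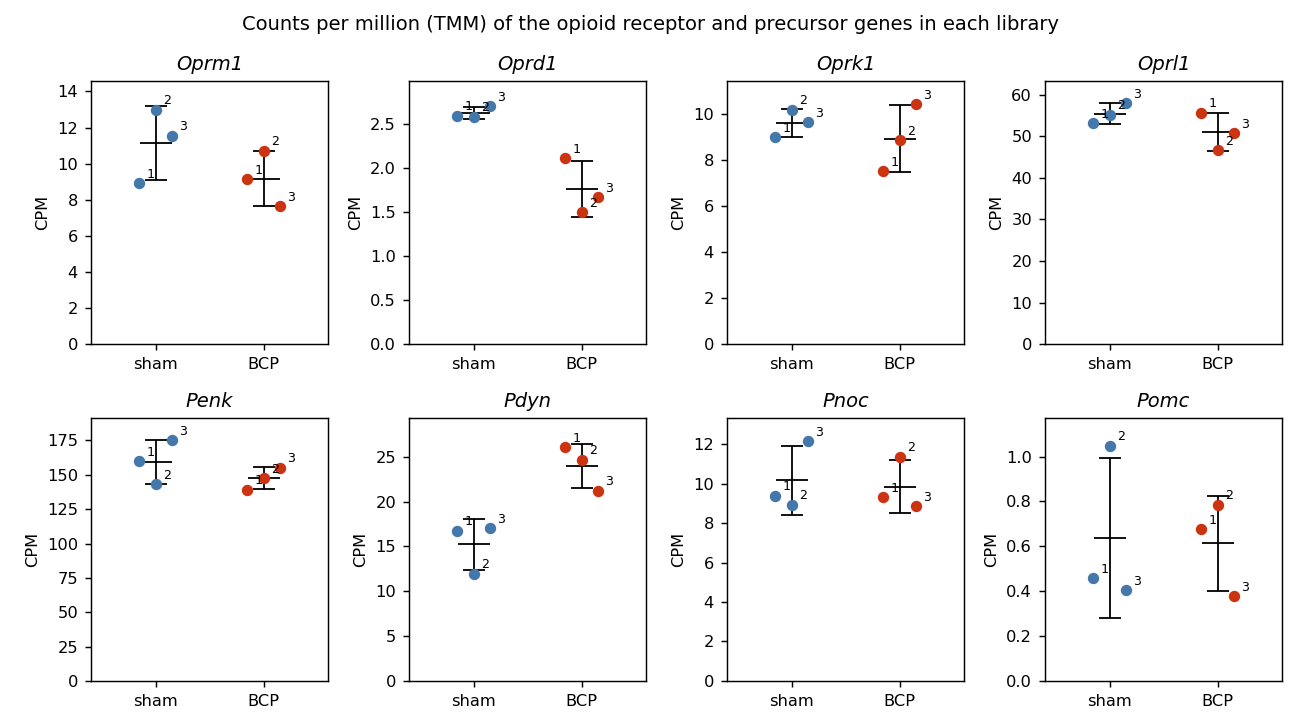
TMM-normalized CPM of each of the 8 genes in its own panel from 0, with 1 point per library and a bar at the mean of the 3 libraries of each group. The 3 BCP values of Pdyn lie above and those of Oprd1 below all sham values, and the groups overlap in the other panels.

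Among the precursors, Pdyn was higher in BCP and the other genes tested did not pass. Pdyn, the dynorphin precursor at 3:122194329-122206671, had 220, 171 and 252 counts in sham and 308, 345 and 280 in BCP. In CPM this was 16.8, 11.9 and 17.0 in sham and 26.0, 24.7 and 21.2 in BCP. The lowest BCP library, library 3, was above the highest sham library. The log2 fold change was 0.65 with an SE of 0.13, and the adjusted p was 0.000883 by edgeR's quasi-likelihood test with Benjamini-Hochberg adjustment over all genes. By this test Pdyn ranked 1646 of 14908 genes, among the 15.8% of genes that were higher. Sham library 2 had the lowest Pdyn value, and without it the log2 fold change was 0.50 and still passed.

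Penk, the enkephalin precursor at 5:17056419-17061837, had a CPM of 160, 143 and 175 in sham and 139, 148 and 155 in BCP. The groups overlapped through sham library 2. Its log2 fold change was -0.11 with an SE of 0.07 (95% interval -0.26 to 0.03, adjusted p = 0.24 by edgeR). Without sham library 2, which was below 2 of the BCP libraries, the log2 fold change was -0.19 with an adjusted p of 0.0317, and over the other alternatives and left-out libraries the adjusted p reached 0.747, so the call on Penk turned on that library.

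Pnoc, the nociceptin precursor at 15:48805228-48833285, had a CPM of 9.38, 8.94 and 12.2 in sham and 9.30, 11.4 and 8.86 in BCP. The groups overlapped over nearly their whole range, and the log2 fold change was -0.05 with an SE of 0.16 (95% interval -0.37 to 0.28, adjusted p = 0.866 by edgeR). Pomc, at 6:28382962-28388967, had 6, 15 and 6 counts in sham and 8, 11 and 5 in BCP. It was therefore near the limit of detection in both groups and was left out by the filter. Without the filter its log2 fold change was -0.06 with an SE of 0.52 (95% interval -1.12 to 1.00). The interval reaches a 2-fold difference in either direction, so such a difference is not excluded. Of 7 markers of the pituitary and hypothalamus, Gh1, Prl and Tshb were listed at 0 counts in all libraries, and Oxt had at most 3, Agrp at most 5 and Avp at most 10 counts in a library. Cartpt had 28 to 73 counts, with a log2 fold change of -0.12 (adjusted p = 0.795 by edgeR). Other genes of this tissue, such as Npy and Pcsk1n, were also listed at 0, so a 0 in this table may not be a measured absence.

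**Figure D3:**
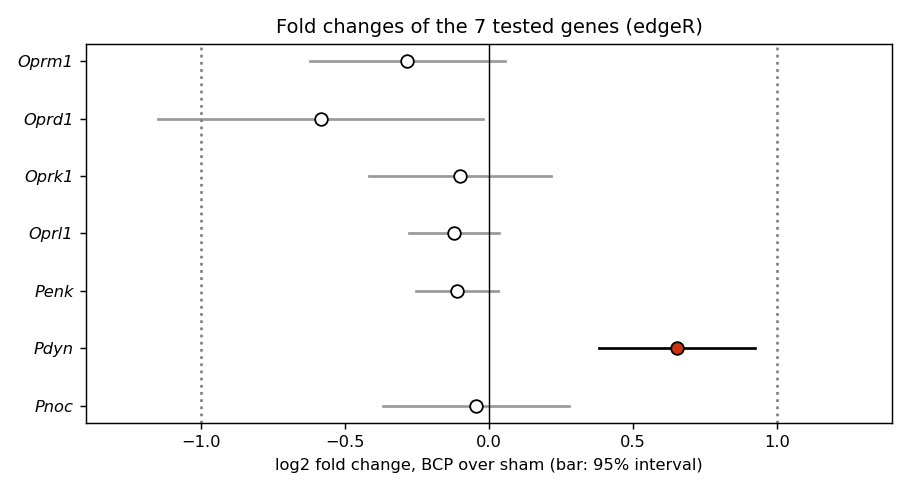
Log2 fold change of BCP over sham for the 7 genes tested, with the 95% interval of the edgeR fit as a line and no change at 0. The Pdyn interval (0.38 to 0.92) lies above 0, the Oprd1 interval ends at -0.02, and the other intervals cross 0.

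The balance of the precursors was also compared within each library, where it needs no scaling between libraries. The FPKM of Pdyn was 12%, 9.56% and 11.1% of that of Penk in sham and 21.5%, 19.1% and 15.7% in BCP. Every BCP library was above every sham library. The log2 ratio of the counts differed by 0.78, that is 1.71-fold, with means of -3.40 ± 0.17 (SD, n = 3) in sham and -2.62 ± 0.23 (SD, n = 3) in BCP. The two-sided exact permutation p was 0.1, the smallest that 3 against 3 libraries allow. For Pnoc the ratio to Penk was 8.15%, 8.67% and 9.65% in sham and 9.28%, 10.7% and 7.93% in BCP, and the groups overlapped (1.05-fold, exact permutation p = 0.7). In the summed FPKM of the 4 precursors, Pdyn took 7.97% to 9.95% in sham and 12.6% to 16.3% in BCP, while Penk took 82.4% to 83.3% and 75.8% to 80.5%. Pnoc stayed between 6.38% and 8.15%, and Pomc between 0.477% and 1.53%, over all 6 libraries.

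Marker genes of several cell types in the tissue differed between the groups and are given beside these results. Their counts stand beside 15.8% of all genes that were higher and 12.1% that were lower. A count of 1 in a short list is too small to set against these shares. Of 14 markers of neurons 10 were lower and none was higher, and their summed level was 10243 to 10614 CPM in sham and 8919 to 9758 CPM in BCP. The summed level of the dorsal horn markers was 299 to 323 CPM in sham and 292 to 305 CPM in BCP, and none of the 14 tested was higher. Microglia and macrophage markers were higher in 7 of 10, with sums of 237 to 306 CPM in sham and 746 to 900 CPM in BCP. T cell markers were higher in 6 of 6, with sums of 4.88 to 5.80 CPM in sham and 41.3 to 44.7 CPM in BCP, and Cd3d had 0 counts in all sham libraries. All 6 oligodendrocyte markers were lower, with sums of 38298 to 43528 CPM and 27409 to 30592 CPM. Astrocyte markers were higher in 1 and lower in 2 of 6, with sums of 4039 to 4317 CPM and 5839 to 7598 CPM. The highest sum was that of BCP library 1, in which Aqp4 stood at 2415 CPM against 360 and 362 CPM in BCP libraries 2 and 3, and the higher gene was Gfap (2163 to 2469 CPM in sham and 3729 to 4440 CPM in BCP). Of 5 markers of the dorsal root ganglion and root that were tested, 1 was lower, Calca, the precursor of calcitonin gene-related peptide. The sum of the list was 57.0 to 65.2 CPM in sham and 37.6 to 44.6 CPM in BCP. Most of that sum was Calca, with 43.8 to 50.8 CPM in sham and 27.2 to 34.1 CPM in BCP. Which cells held the Calca RNA was not determined, so the sum is not a measure of ganglion or root material. Mrgprd had 0 counts, and Scn10a, Scn11a and Prdm12 were under 1 CPM in every library. Motor neuron markers were lower in 2 of 4, excitatory and inhibitory neuron markers in 2 of 6, meninges and fibroblast markers in 1 of 5 and Hox genes of the lumbar cord in 1 of 4, with none higher in these lists. The Hox genes were present in all libraries, with sums of 97.5 to 132 CPM. CPM is a share of the library, so a type can also be lower because other types add RNA. In bulk tissue, fewer cells of a type, less RNA per cell and such a smaller share cannot be told apart. The part of these shifts in the levels of the 8 genes was not tested. Scaled to the summed counts of the neuron markers in place of the whole library, the log2 fold change of Pdyn was 0.81 and that of Oprd1 was -0.43, and those of Oprk1, Oprl1, Penk and Pnoc turned positive (0.04 to 0.11). That scaling moved the median of all genes from -0.01 to 0.15.

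**Figure D4:**
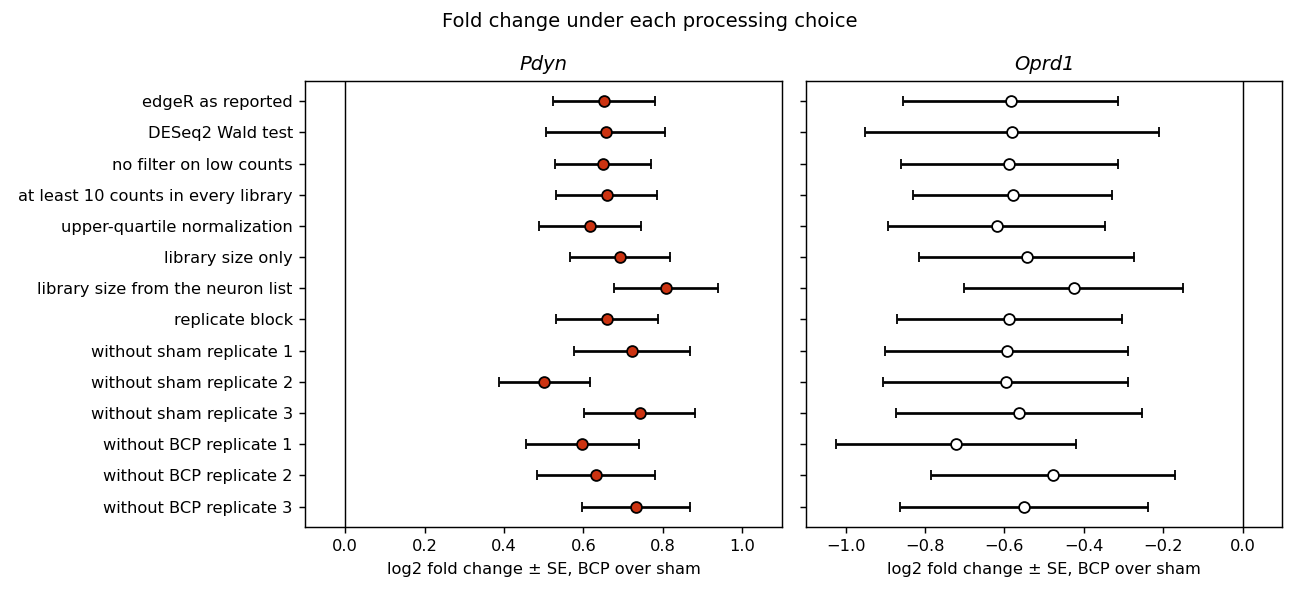
Log2 fold change of Pdyn and Oprd1, in separate panels, under edgeR as reported and under each alternative, including each library left out in turn. Pdyn lies between 0.50 and 0.81 and passes in all 13 alternatives (adjusted p 8.57e-05 to 0.00617). Oprd1 lies between -0.72 and -0.43 and passes in none.

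The genes that make, cut and respond to opioid peptides were described as 7 lists of 57 genes, of which 56 were tested. Of these 12 were higher, 10 were lower and 34 did not pass, so 39.3% passed against 27.9% of all genes (15.8% higher and 12.1% lower). The median log2 fold change was -0.08 against -0.01. The lists were chosen with earlier results of these data known. This share and those of the single lists are therefore descriptions, and a higher share than over all genes is not a result about the pathway. With the neuron markers as the scale none of the 56 genes was lower, and all 12 higher genes still passed. The 10 lower genes also became 16 with upper-quartile factors and 5 with library size only, and 4 without sham library 3, 5 without BCP library 2 and 5 without BCP library 3. Pathway values are the mean CPM of the 3 sham and then the 3 BCP libraries and the log2 fold change of BCP over sham, with adjusted p from edgeR.

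Inhibitory G protein alpha subunits split by member. Gnai2 was higher (197 in sham and 243 in BCP, log2 fold change 0.30, SE 0.05, adjusted p = 0.000285), as was Gnai3 (62.4 and 77.6, log2 fold change 0.32, SE 0.06, adjusted p = 0.000577). Gnao1, the abundant alpha subunit of neurons, was lower (260 and 216, log2 fold change -0.27, SE 0.05, adjusted p = 0.000337). Gnaz, chosen after its values were seen because it completes the count, was lower by -0.20 (adjusted p = 0.046). Of the 5 members tested, 2 were higher and 2 lower, beside 15.8% and 12.1% of all genes, and Gnai1 did not pass. The higher count was 2 under every alternative. The lower count ranged from 0 to 3 over all alternatives, and from 1 to 3 when libraries were left out.

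Of the channels and cyclases that opioid receptors act on, 1 of 13 was higher and 4 were lower, beside 15.8% and 12.1% of all genes, with a median log2 fold change of -0.17. The 4 lower genes became 8 with upper-quartile factors, 0 with the neuron list and 2 without sham library 3. Kcnj5, a subunit of G protein-gated potassium channels, was higher, from 3.44 in sham to 9.80 in BCP (log2 fold change 1.5, SE 0.21, adjusted p = 1.41e-05). Kcnj3, a subunit it can pair with, was lower (48.5 and 41.0, log2 fold change -0.24, adjusted p = 0.0173). Cacna1a, the pore of presynaptic P/Q-type calcium channels, was lower (236 and 195, log2 fold change -0.27, adjusted p = 0.000103). The adenylyl cyclase genes Adcy5 (149 and 121, log2 fold change -0.30, adjusted p = 0.000165) and Adcy6 (79.5 and 68.9, log2 fold change -0.21, adjusted p = 0.0223) were also lower.

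Among the genes that switch receptors off, 3 of 13 were higher and 1 was lower, a share near the 27.9% of all genes that passed. Arrb2, a beta-arrestin that binds phosphorylated receptors, rose from 40.6 to 60.1 (log2 fold change 0.56, SE 0.07, adjusted p = 2.87e-06), and Arrb1 was lower (110 and 99.6, log2 fold change -0.15, adjusted p = 0.0388). Rgs19, which speeds the turn-off of inhibitory G proteins, rose from 22.7 to 33.3 (log2 fold change 0.55, SE 0.09, adjusted p = 0.000115). Grk6, a receptor kinase, was higher (37.0 and 45.4, log2 fold change 0.30, adjusted p = 0.00415). The sums of microglia and of T cell markers were higher in the same libraries as Arrb2, Rgs19, Gnai2, Gnai3 and Kcnj5, and their part in these levels was not tested.

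**Figure D5:**
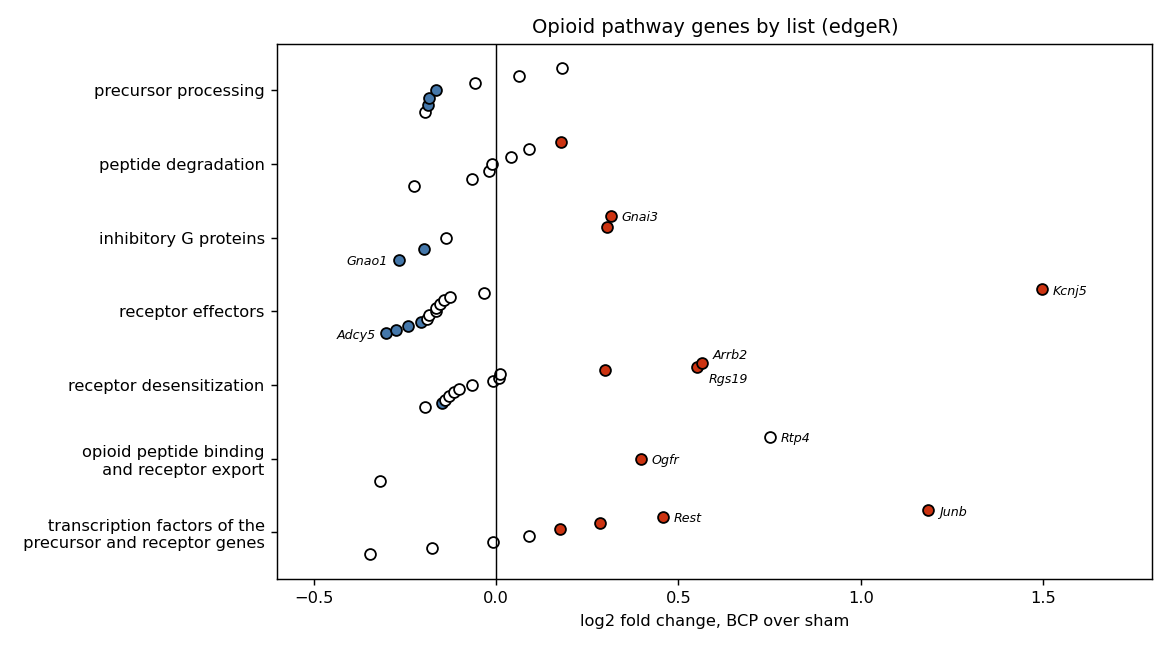
Log2 fold change of BCP over sham for the 56 pathway genes tested, 1 row per list, with filled points for an adjusted p under 0.05 (red higher, blue lower) and open points for those that did not pass. Kcnj5 and Junb lie past 1, and most other points lie between -0.4 and 0.6.

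Of the genes for precursor processing, which include enzymes and their partners, 3 of 7 were lower and none was higher, beside 12.1% and 15.8% of all genes, with a median log2 fold change of -0.17. The lower count was 1 with library size only and 0 with the neuron list, and it was 1 without sham library 3, 1 without BCP library 2 and 0 without BCP library 3. Lower were Pcsk2, a convertase that acts on the opioid precursors (157 and 140, log2 fold change -0.17, adjusted p = 0.0212), and Pam, the amidating enzyme (293 and 258, log2 fold change -0.19, adjusted p = 0.00735). Scg5, the chaperone of Pcsk2, chosen after its values were seen because it completes the count, was lower by -0.18 (adjusted p = 0.0496). Pcsk1n, an inhibitor of Pcsk1, was listed with 0 counts in all libraries. Of the enzymes that degrade the peptides, 1 of 7 was higher, Ece1 (87.1 and 98.6, log2 fold change 0.18, adjusted p = 0.0248), and none was lower, a share near the 15.8% of all genes that were higher. The main enkephalin-degrading enzyme, Mme, had a log2 fold change of -0.01 (adjusted p = 0.957).

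Transcription factors known at the precursor or receptor genes were higher in 4 of 8 and lower in none, beside 15.8% and 12.1% of all genes, with a median log2 fold change of 0.13. Junb, an AP-1 subunit, rose from 8.03 to 18.3 (log2 fold change 1.19, SE 0.13, adjusted p = 5e-07), and Jun was higher (69.4 and 78.3, log2 fold change 0.18, adjusted p = 0.0391). Rest, a repressor of neuronal genes, was higher (22.2 and 30.4, log2 fold change 0.46, adjusted p = 0.000599), as was Creb1 (19.3 and 23.5, log2 fold change 0.28, adjusted p = 0.03). Kcnip3, the repressor of Pdyn also called DREAM, had a log2 fold change of -0.18 (adjusted p = 0.235), and Fos had 0.09 (adjusted p = 0.633). Ogfr, which binds the enkephalin peptide also called opioid growth factor, was the 1 of 3 genes of peptide binding and receptor export that was higher (34.4 and 45.2, log2 fold change 0.40, adjusted p = 0.00213).

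The stability of these calls differed by direction. Of the 12 higher genes 9 passed in every leave-one-out fit and under every other alternative tried, and the other 3 were Ece1, Creb1 and Jun. Of the 10 lower genes 3, Cacna1a, Adcy5 and Gnao1, passed in all 6 leave-one-out fits. With the neuron list as the scale their adjusted p by edgeR was 0.118, 0.0874 and 0.16, so 0 of the 10 passed under every alternative. That scaling moved the median log2 fold change of all genes from -0.01 to 0.15, with 4098 genes higher and 284 lower, and so favors higher calls. Without sham library 1 Creb1, Jun, Adcy6, Arrb1, Gnaz and Scg5 lost their calls. Without sham library 2 Creb1, Jun, Arrb1, Gnaz and Scg5 did, and without sham library 3 Ece1, Jun, Kcnj3, Pcsk2, Adcy6, Arrb1, Gnaz and Scg5 did. Without BCP library 1 Creb1 and Arrb1 lost theirs, and without BCP library 2 Ece1, Creb1, Jun, Kcnj3, Pcsk2, Arrb1, Gnaz and Scg5 did. Without BCP library 3 Pam, Pcsk2, Adcy6, Ece1, Creb1, Jun, Gnaz and Scg5 did. The highest adjusted p in a leave-one-out fit was 0.0589 for Pam, 0.115 for Kcnj3, 0.121 for Pcsk2, 0.138 for Adcy6, 0.167 for Ece1, 0.109 for Creb1, 0.178 for Arrb1, 0.2 for Jun, 0.245 for Gnaz and 0.24 for Scg5.

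Long noncoding RNAs (lncRNAs) were listed within 10 kb of 5 of the 8 genes, 6 in all, of which 4 were tested. None of the 4 passed at an adjusted p under 0.05 by edgeR, beside 1.97% of 12157 lncRNAs that did. None had an unadjusted p under 0.05 by edgeR as reported or by DESeq2. In edgeR fits with at least 10 counts in every library and without BCP library 1, 1 did. The share of all lncRNAs at that unadjusted threshold is not given here. NONRATT023018.2, 1538 bases from Oprk1 at 5:13742649-13743120, had 17, 11 and 17 counts in sham and 16, 27 and 23 in BCP. Its CPM did not overlap between the groups, as was the case for 20.7% of lncRNAs tested, and its log2 fold change was 0.68 with an SE of 0.32 (adjusted p = 0.412). ENSRNOT00000087728 lies inside Oprm1 at 1:43563457-43563998, with 19, 24 and 14 counts in sham and 20, 30 and 25 in BCP (log2 fold change 0.53, SE 0.31, adjusted p = 0.533). Near Pomc, NONRATT024889.2 varied within both groups, with 435, 438 and 1039 counts in sham and 326, 1095 and 882 in BCP (log2 fold change 0.41, SE 0.58, adjusted p = 0.847), and NONRATT024888.2 had a log2 fold change of -0.04 with an SE of 0.09 (adjusted p = 0.907).

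The gene whose log2 CPM followed each tested gene most closely over the 6 libraries was found among 94 genes of the pathway and neuron lists, as a description in which the libraries of a group share their condition. For Pdyn it was Gnai3 (Pearson r = 0.946), and for Oprd1 it was Syn1, a synaptic vesicle protein gene (r = 0.976). For Oprm1 it was Pax2, a marker of inhibitory neurons (r = 0.931), for Oprl1 it was Pcsk2 (r = 0.904) and for Penk it was Grk4 (r = 0.903). Oprk1 (Gad1, r = 0.700) and Pnoc (Fosb, r = 0.706) had lower values. Each of these r is the largest of 94 over only 6 libraries, so it runs high by selection and does not show a tie between the genes. Between pairs of the 7 genes, r was highest for Oprd1 with Oprl1 (0.865) and lowest for Oprd1 with Pdyn (-0.714).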

How the data were processed

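Total RNA of 3 sham and 3 BCP libraries was depleted of ribosomal RNA and sequenced with stranded kits. The authors filtered reads with Seqtk, mapped them with HISAT2 2.0.4 to Rnor_6.0 and ran StringTie 1.3.0. The deposited counts per gene and per lncRNA transcript were not normalized, and the deposited FPKM values were calculated by the authors per gene length and sequencing depth. The counter, its use of strand and of multiply mapped reads are not given in the sources used here. Library totals were 11779485 to 15004290 gene counts and 1946315 to 2531114 lncRNA counts, and intervals cover the spread between libraries.

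The test was that of edgeR 4.0.16 (R 4.3.3), run apart on genes and on lncRNAs: filtering by expression, TMM factors (0.982 to 1.02 for genes), a robust quasi-likelihood fit on condition and Benjamini-Hochberg adjustment at 0.05 over all features. The standard error was the log2 fold change divided by the root of F. FPKM was used only to compare genes and for within-library shares. Promoters came from RefSeq (GRCr8), with motifs chosen after the values were seen. Alternatives were DESeq2 1.42.0, no filter, a minimum of 10 counts in each library, upper-quartile factors, library size only, the neuron list as library size, the replicate block and each library left out. The code was tested on simulated data. Figures were drawn with matplotlib 3.10.9.

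The text names the 8 genes, up to 20 pathway genes past the threshold by p-value, the lncRNAs tested within 10 kb, and the gene most like each. Named outside that rule are Gnaz, Scg5, Gnai1, Mme, Kcnip3, Fos, Pcsk1n, Ipcef1 and single marker genes. The genes and lists were chosen with earlier results of these data known. The dorsal horn markers that were lower are not reported here.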

Additional observations from a re-analysis of the deposited data

How the results depend on the processing

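Of the 8 genes, Pdyn passed under all 13 alternatives, and no alternative took Oprd1, Oprm1, Oprk1, Oprl1 or Pnoc past the threshold. Leaving out each library in turn gave log2 fold changes of -0.42 to -0.16 for Oprm1, -0.72 to -0.48 for Oprd1, -0.23 to 0.010 for Oprk1, -0.18 to -0.059 for Oprl1, -0.16 to 0.11 for Pnoc and -0.19 to -0.041 for Penk. The sign turned for Oprk1 without BCP library 1 (0.010) and for Pnoc without sham library 3 (0.11) and without BCP library 3 (0.03). Penk passed without sham library 2 (-0.19), so that 0 to 1 of the 8 genes were lower when libraries were left out. With library sizes from the neuron list the log2 fold change was 0.064 for Oprk1, 0.037 for Oprl1, 0.048 for Penk and 0.11 for Pnoc, and 0.014 for Arrb1, since each gene is then set against neuron markers whose sum was lower in BCP. The 10 lower pathway genes became 16 with upper-quartile factors, 5 with library size only, 0 with the neuron list and 4 to 11 when libraries were left out (4 without sham library 3, 5 without BCP library 2 and 5 without BCP library 3), and the cause was not tested. The 12 higher pathway genes ranged from 9 to 14. Leaving out libraries gave -0.10 to 0.019 for NONRATT024888.2 (0.019 without sham library 2) and -0.037 to 0.18 for the log2 ratio of Pnoc to Penk (-0.037 without BCP library 2). Over all genes 2352 were higher and 1805 lower as reported, 2134 and 2401 with upper-quartile factors, 2673 and 1257 with library size only and 4098 and 284 with the neuron list.

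The replicate numbers were not taken to mark pairs, since the deviations of same-numbered libraries correlated at -0.12, 0.06 and -0.04. With the replicate block Pdyn had a log2 fold change of 0.66 and an adjusted p of 0.00151, 1 of the 8 genes was higher and 0 were lower, and 11 pathway genes were higher and 8 lower; Arrb1, Jun and Gnaz lost their calls. Depth limits what could be seen for Pomc, which had at most 15 counts in a library.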
